A study of Mus musculus with 12 samples.

Results

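The 9 mouse livers with HFHS (a high fat, high sugar diet) in their title were compared with the 3 livers titled CNT, and the genes described are those for which every one of the 9 lay on the same side of every one of the 3, whether or not the mouse had been injected. Of 12637 genes expressed highly enough to be tested, 443 (3.51%) had all 9 HFHS-titled libraries above all 3 CNT libraries and 543 (4.30%) had all 9 below, together 986 genes (7.80%). Expression was measured by RNA sequencing of whole, flash-frozen livers of female C57BL/6 mice, an inbred strain. The HFHS-titled livers form 3 groups of 3: mice given curcumin in liposomes, mice given calcitriol in liposomes, and mice given no injection, all after 14 weeks on the HFHS diet, which was used to induce steatohepatitis (fatty liver with inflammation). Liposomes are lipid vesicles that carried the compounds into a vein, in weeks 12 and 13, and the livers were profiled 2 weeks after the first dose. Curcumin is a plant polyphenol and calcitriol the hormone form of vitamin D. The labels attach the same HFHS diet to the CNT livers, so the labels do not tell what sets CNT apart, and the difference cannot be assigned to diet. Livers given empty liposomes were not analysed here. Titles number 3 libraries in each group and do not say whether each is its own animal. The p-values therefore reflect only how far these samples scatter, which may be technical.

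The liver takes up fatty acids from blood, and makes fatty acids and cholesterol from sugar-derived carbon. It stores fatty acids as triglyceride in lipid droplets and burns them in mitochondria and peroxisomes. Transcription factors of the SREBP family switch on the synthetic enzymes, and the nuclear receptor PPARA switches on oxidation during fasting or fat feeding. Hepatocytes, the main cells of the organ, also detoxify drugs and steroids with cytochrome P450, sulfotransferase and glutathione S-transferase enzymes, turn ammonia into urea and secrete plasma proteins such as alpha-1-antitrypsin.

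The values are log2 expression levels in which 1 unit is a doubling. Counts were not used here, so sequencing depth is unknown and precision rests on the spread between libraries. The transformation behind the values is not named, so differences hold on that scale only. Correlations between libraries over all genes tested were 0.983 to 0.998. Uninjected HFHS replicates 1 and 3 stood apart, at -32.8 and -28.4 on the first principal component (37.5% of the variance), while the third uninjected library, HFHS replicate 2, was at 3.09 and the other 9 libraries were at 0.40 to 14.4. Albumin (Alb), the defining hepatocyte product, had 19.65 to 20.71 in HFHS-titled livers and 20.36 to 20.72 in CNT livers. All 14 hepatocyte marker genes had log2 differences below 0 (median -0.24), and their mean level ran from 15.4 to 15.8 over HFHS-titled livers and from 15.8 to 15.9 over CNT livers. In whole tissue, fewer cells of a type and less RNA per cell cannot be told apart.

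Most differences shared by all 9 livers were small. The median log2 difference (HFHS-titled minus CNT) was 0.35 over the 443 genes above CNT and -0.30 over the 543 below, and the gap between the nearest HFHS-titled and CNT libraries reached 0.2 for 44 and 55 of them. By limma, a linear model with moderated variances fitted to all genes and 12 libraries, 422 genes rose (3.34% of those tested) and 489 fell (3.87%) at an adjusted p under 0.05 (together 7.21%). At least 2-fold were 17 of these rises and 22 of these falls. Of the genes on one side of CNT, 283 of the 443 (2.24% of all genes tested) and 334 of the 543 (2.64%) were among those calls. The choice and the test use the same values, so that overlap is a description. Genes above CNT had a median level of 6.68 and genes below CNT one of 9.30, beside 7.74 over all genes tested. Protein-coding genes were 96.4% and 96.9% of these sets and 95.6% of all genes tested.

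The number of limma calls depended on single libraries. It was 911 with all 12, 137 without CNT replicate 2, 288 without CNT replicate 1 and 2508 without HFHS replicate 2. Leaving out other libraries gave 502 calls without curcumin replicate 1, 556 without curcumin replicate 3 and 577 without calcitriol replicate 1. Genes on one side of CNT numbered 1662 without CNT replicate 1 and 2342 without CNT replicate 3. Leaving out a library removes a condition from that choice, so among the same genes the number on one side can only stay or rise, here and in the lists described further on.

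The widest gap upward belonged to Casc4, which encodes a membrane protein related to a Golgi protein (ENSMUSG00000060227, GRCm38 chromosome 2, 121866970 to 121936220). Casc4 stood at 7.74, 7.76 and 7.86 in curcumin livers, 7.87, 7.96 and 7.77 in calcitriol livers and 7.89, 7.56 and 8.02 in uninjected HFHS livers, against 6.66, 6.74 and 6.77 in CNT livers. The lowest HFHS-titled liver thus lay 0.79 above the highest CNT liver, and the difference was 1.10 ± 0.09 (SE, adjusted p = 6.93e-05 in limma). Gpc1 encodes glypican-1, a cell surface proteoglycan with heparan sulfate chains (chromosome 1, 92831645 to 92860779). It had 8.60, 8.70 and 8.59 with curcumin, 7.89, 7.97 and 7.54 with calcitriol and 8.46, 8.49 and 8.15 in uninjected HFHS livers, against 6.51, 6.83 and 6.82 in CNT livers. Its rise of 1.55 ± 0.10 (adjusted p = 4.06e-05) had the smallest p of all genes tested, and the calcitriol livers were the lowest of the 9. Clstn3, which encodes the membrane protein calsyntenin-3, ranged from 6.79 to 7.74 (median 7.27) in HFHS-titled livers, against 6.37, 6.27 and 6.20 in CNT livers. Clstn3 differed by 1.34 in curcumin, 0.61 in calcitriol and 0.96 in uninjected livers, each against the same CNT libraries.

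**Figure D1:**
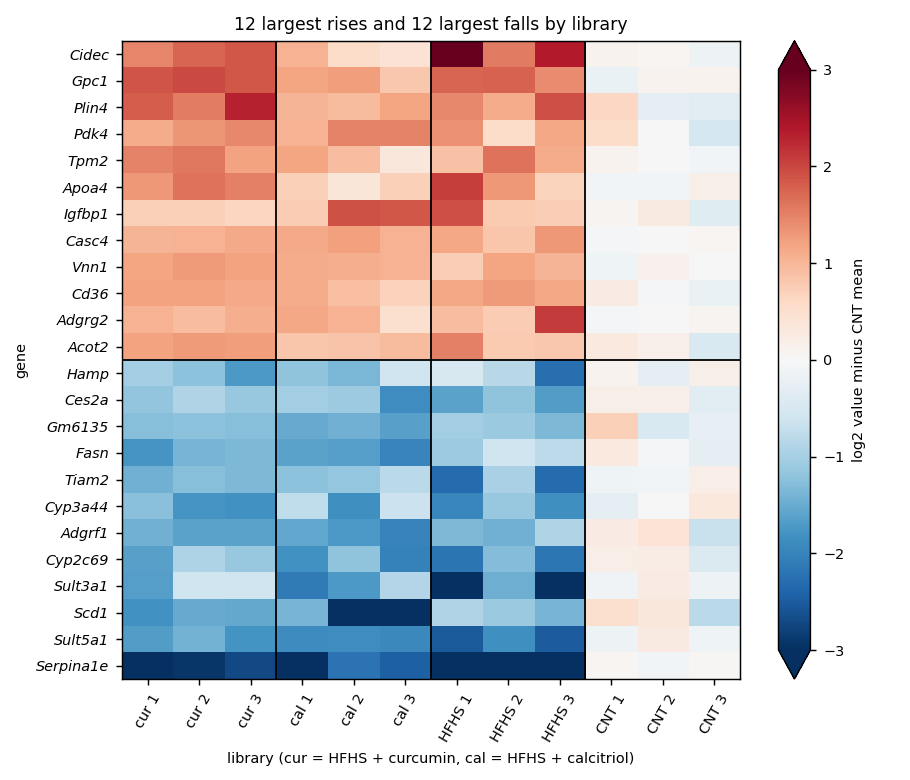
Deposited log2 value minus the mean of the 3 CNT livers (colour, capped at 3 in either direction) for the 12 largest rises and 12 largest falls among genes on one side of CNT (rows), in each library (columns; curcumin, calcitriol, uninjected HFHS, CNT). Every HFHS-titled column is red in the upper block and blue in the lower one, and Serpina1e, at -3.12, is the deepest fall.

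**Figure D2:**
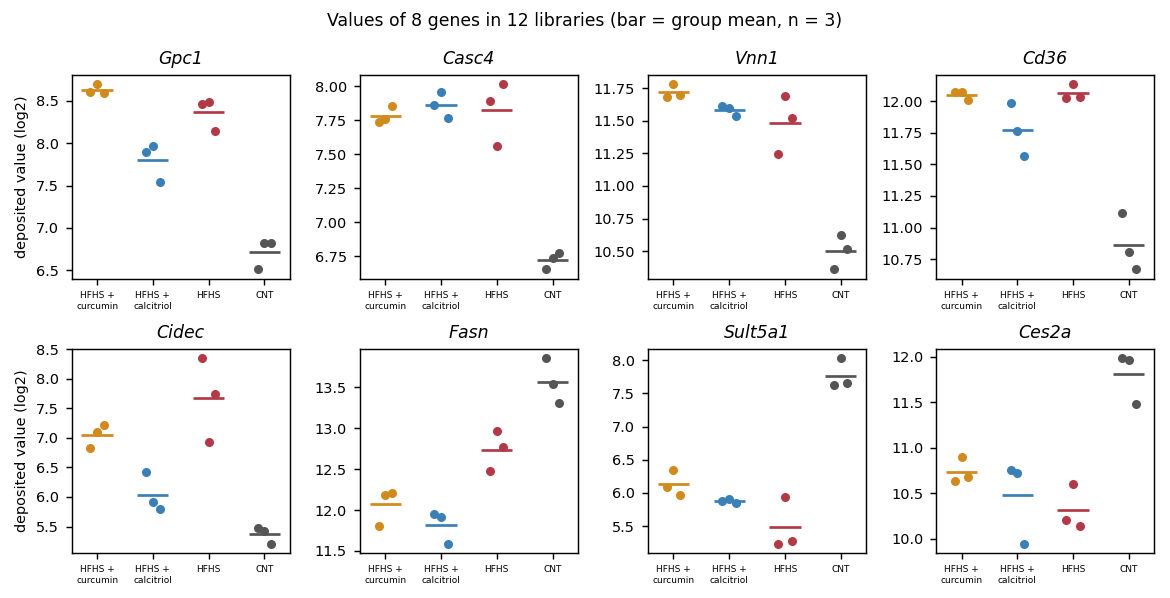
Deposited log2 values (vertical axes, each gene with its own range) of 8 genes in the 12 libraries, by group. Points are libraries and bars are group means (n = 3); in Gpc1, Casc4, Vnn1, Cd36 and Cidec all HFHS-titled points lie above CNT, and in Fasn, Sult5a1 and Ces2a all lie below.

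Genes of fat storage and fatty acid uptake were among the largest rises. Of 18 genes of lipid droplets and fat storage tested, 5 rose and 0 fell, and 3 had all 9 livers above CNT (16.7%, beside 3.51% of all genes). Cidec, whose product fuses and enlarges lipid droplets (chromosome 6, 113424634 to 113435760), had 6.83, 7.11 and 7.22 with curcumin, 6.41, 5.91 and 5.80 with calcitriol and 8.35, 6.93 and 7.74 in uninjected HFHS livers, against 5.48, 5.42 and 5.21 in CNT livers. The difference was 1.55 ± 0.24 (adjusted p = 0.00541, or 0.0682 with 2 groups in place of 4 group means), and the 9 livers themselves were spread widely. Plin4, a coat protein of lipid droplets, ranged from 8.09 to 9.43 (median 8.56) in HFHS-titled livers, against 7.74, 6.83 and 6.81 in CNT livers (1.48 ± 0.23, adjusted p = 0.00597). Fitm1, which partitions triglyceride into droplets, ranged from 6.96 to 8.41 (median 7.70), against 6.79, 6.89 and 6.60 in CNT livers (0.90 ± 0.21, adjusted p = 0.0299). The main droplet coat gene Plin2 had a difference of 0.29 (adjusted p = 0.148), and the triglyceride synthesis gene Dgat2 had -0.29 (adjusted p = 0.167). The 5 calls of this list became 2 without CNT replicate 2 or curcumin replicate 1, and 3 without CNT replicate 1 or 3, curcumin replicate 2 or 3, or calcitriol replicate 1 or 3. The fat cell genes Adipoq, Lep, Plin1, Retn and Cidea were below the expression filter, and the mean level of the 5 adipocyte genes tested was 8.74 to 10.7 in HFHS-titled livers and 8.77 to 9.16 in CNT livers, with HFHS replicate 3 the highest. The part of these cells in the result was not tested.

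Cd36, which carries fatty acids across the cell membrane (chromosome 5, 17781690 to 17888801), had 12.07, 12.07 and 12.01 with curcumin, 11.99, 11.76 and 11.57 with calcitriol and 12.02, 12.14 and 12.04 in uninjected HFHS livers, against 11.12, 10.81 and 10.67 in CNT livers. The groups did not overlap (1.10 ± 0.10, adjusted p = 0.000204). Fabp2, a fatty acid binding protein best known from the gut, ranged from 10.08 to 11.44, against 9.94, 9.88 and 10.02 in CNT livers, and rose as well (0.87 ± 0.16, adjusted p = 0.0108). Pparg, the receptor that drives fat storage genes in adipocytes, ranged from 7.51 to 8.28 in HFHS-titled livers, against 7.39, 7.53 and 7.32 in CNT livers. Its rise of 0.52 ± 0.08 passed (adjusted p = 0.00488), but calcitriol replicate 3, at 7.51, lay below CNT replicate 2, so Pparg is not on one side. Over the list of fatty acid uptake and activation 4 of 18 genes rose (22.2%, beside 3.34% of all genes) and 2 fell (11.1%, beside 3.87%). Among the falls was Acsl3, an acyl-CoA synthetase, by 0.31 ± 0.06 (adjusted p = 0.0116), and the 4 rises became 2 without CNT replicate 2. The sign of the list's median (0.04) turned without HFHS replicate 2 or CNT replicate 3 and with array weights.

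PPARA targets and fatty acid oxidation genes all had differences above 0, 27 of 27, with a median of 0.29 beside -0.01 over all genes tested. Of the 27, 8 rose (29.6%, beside 3.34% of all genes) and 7 had all 9 livers above CNT (25.9%, beside 3.51%). Vnn1, a pantetheinase of the liver and a strong PPARA target (chromosome 10, 23894688 to 23905343), had 11.69, 11.78 and 11.70 with curcumin, 11.61, 11.60 and 11.54 with calcitriol and 11.24, 11.69 and 11.52 in uninjected HFHS livers, against 10.36, 10.62 and 10.52 in CNT livers (1.10 ± 0.09, adjusted p = 8.08e-05). The groups are 0.62 apart at their nearest. Cyp4a14, a fatty acid hydroxylase, ranged from 14.35 to 15.03 (median 14.55), against 13.81, 13.67 and 13.51 in CNT livers (0.99 ± 0.13, adjusted p = 0.00184). Its relative Cyp4a31 had a median of 8.10 and a highest value of 8.71 in HFHS-titled livers, against 7.28, 7.30 and 7.37 in CNT livers (0.87 ± 0.13, adjusted p = 0.00426). Cyp4a genes are near-identical copies that could share reads, so their split is uncertain.

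Other PPARA targets act in the mitochondrion. Pdk4, the kinase that shuts off pyruvate entry (chromosome 6, 5483351 to 5496309), stood at 8.61, 8.83 and 8.93 with curcumin, 8.54, 8.98 and 8.98 with calcitriol and 8.87, 8.05 and 8.65 in uninjected HFHS livers, against 8.04, 7.48 and 6.97 in CNT livers. Pdk4 rose by 1.22 ± 0.21 (adjusted p = 0.0104), with HFHS replicate 2 and CNT replicate 1 only 0.01 apart. Acot2, an acyl-CoA thioesterase, rose by 1.06 ± 0.17 (adjusted p = 0.00611) and Ucp2, a carrier of the inner membrane, by 0.80 ± 0.11 (adjusted p = 0.00276). Fgf21, a hormone secreted by the fasting liver, ranged from 5.53 to 6.84, against 5.50, 5.28 and 5.34 in CNT livers (0.71 ± 0.14, adjusted p = 0.0133). The 8 calls became 5 without CNT replicate 2 and 19 under quantile normalization, where 12 genes lay on one side, and 11 genes lay on one side without calcitriol replicate 3. Of the 28 respiratory chain and ATP synthase genes 0 passed in either direction and 0 were on one side (median -0.15).

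Genes of de novo lipogenesis, the synthesis of fatty acids, were lower. Of 19 tested, 7 fell and 0 rose, and 5 had all 9 livers below CNT (26.3%, beside 4.30% of all genes); the median was -0.35. Fasn, which encodes fatty acid synthase (chromosome 11, 120805846 to 120824547), stood at 11.81, 12.18 and 12.21 with curcumin, 11.95, 11.91 and 11.59 with calcitriol and 12.48, 12.96 and 12.77 in uninjected HFHS livers, against 13.86, 13.54 and 13.31 in CNT livers. The uninjected livers lay nearest to CNT, and Fasn fell by 1.36 ± 0.14 over all 9 (adjusted p = 0.000507). Acaca, the acetyl-CoA carboxylase that supplies Fasn, ranged from 8.79 to 9.52 (median 9.11), against 10.28, 9.83 and 9.71 in CNT livers (-0.84 ± 0.11, adjusted p = 0.00276). Elovl6, which lengthens the product, ranged from 9.71 to 10.50 (median 10.05), against 11.54, 11.27 and 10.73 in CNT livers (-1.11 ± 0.14, adjusted p = 0.00184). Scd1, which makes monounsaturated fat (chromosome 19, 44394455 to 44407879), was the most scattered of these genes. It had 14.76, 15.07 and 15.05 with curcumin, 15.19, 13.40 and 13.17 with calcitriol and 15.69, 15.46 and 15.19 in uninjected HFHS livers, against 17.06, 16.92 and 15.78 in CNT livers (-1.81 ± 0.39, adjusted p = 0.0222). Calcitriol replicates 2 and 3 were the lowest and CNT replicate 3 came within 0.09 of the highest HFHS-titled liver; without CNT replicate 2 the adjusted p was 0.113. Srebf1, the SREBP gene that drives this pathway, lay below CNT in all 9 livers but had adjusted p = 0.0526. The 7 calls became 3 without CNT replicate 1 or 2, and the 5 genes on one side became 8 without HFHS replicate 2 and 10 without CNT replicate 3. Quantile normalization left 3 of them on one side.

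Cholesterol synthesis genes had differences below 0 in 22 of 23 cases (median -0.40), and 10 fell (43.5%, beside 3.87% of all genes). On one side of CNT were 5 of the 23 (21.7%, beside 4.30%). The median difference was -0.39 with curcumin, -0.71 with calcitriol and -0.02 without injection, each against the same CNT libraries. Lss, lanosterol synthase, had 9.79, 10.13 and 10.13 with curcumin, 9.82, 9.90 and 9.61 with calcitriol and 10.39, 10.73 and 10.65 in uninjected HFHS livers, against 10.46, 10.57 and 10.56 in CNT livers. Uninjected livers overlapped CNT there, so Lss is not on one side although it fell over all 9 (-0.40 ± 0.09, adjusted p = 0.0277). Ebp and Tm7sf2, a sterol isomerase and a sterol reductase, lay below CNT in all 9 livers with adjusted p = 0.0509 and 0.0547. The 10 calls became 0 without CNT replicate 2, 4 without CNT replicate 1 or 3, 6 without curcumin replicate 1 or calcitriol replicate 3, and 18 without the 3 uninjected livers, where 14 genes lay on one side. Without HFHS replicate 2, 8 lay on one side. Under quantile normalization 4 fell and 2 lay on one side.

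Promoters of the fatty acid and cholesterol genes are shown because SREBP, which drives both pathways, is known to act beside NF-Y, a factor that binds the CCAAT box. The motif, CCAAT on either strand (ATTGG on the strand printed), was chosen after the values were seen. Each line is the RefSeq window from 250 bases before to 50 after the gene's start (build GRCm38.p6), 5' to 3', with the motif in capitals.
Fasn, chr11:120824498-120824797, minus strand: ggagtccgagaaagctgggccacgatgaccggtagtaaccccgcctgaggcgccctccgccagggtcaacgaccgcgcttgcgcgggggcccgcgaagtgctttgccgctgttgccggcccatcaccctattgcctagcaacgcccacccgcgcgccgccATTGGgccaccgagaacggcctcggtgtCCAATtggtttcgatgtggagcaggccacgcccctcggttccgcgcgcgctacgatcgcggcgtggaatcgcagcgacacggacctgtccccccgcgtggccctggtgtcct
Lss, chr10:76531355-76531654, plus strand: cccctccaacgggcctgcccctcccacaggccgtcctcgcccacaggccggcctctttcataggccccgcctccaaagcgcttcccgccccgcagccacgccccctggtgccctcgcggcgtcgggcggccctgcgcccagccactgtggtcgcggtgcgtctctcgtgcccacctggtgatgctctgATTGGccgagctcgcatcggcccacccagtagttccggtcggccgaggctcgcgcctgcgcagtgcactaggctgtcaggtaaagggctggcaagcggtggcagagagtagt
Ebp, chrX:8193463-8193762, minus strand: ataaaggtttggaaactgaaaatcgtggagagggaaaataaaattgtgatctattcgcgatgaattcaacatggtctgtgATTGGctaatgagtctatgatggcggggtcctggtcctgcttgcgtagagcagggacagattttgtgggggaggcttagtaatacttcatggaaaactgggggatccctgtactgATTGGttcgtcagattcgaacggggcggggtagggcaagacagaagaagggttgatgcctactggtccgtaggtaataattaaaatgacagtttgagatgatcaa
Tm7sf2, chr19:6067801-6068100, minus strand: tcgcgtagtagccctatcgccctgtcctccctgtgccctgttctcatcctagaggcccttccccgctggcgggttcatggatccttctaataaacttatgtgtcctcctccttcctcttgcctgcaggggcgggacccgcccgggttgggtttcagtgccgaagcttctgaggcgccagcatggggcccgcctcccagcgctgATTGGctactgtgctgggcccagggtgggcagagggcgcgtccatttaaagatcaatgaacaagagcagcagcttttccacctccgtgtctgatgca
Counting copies that do not overlap, Fasn and Ebp hold 2, Lss and Tm7sf2 1 each. In Fasn the bases tgg follow CCAAT, so an ATTGG overlaps it, which is neither fully in capitals nor counted. The motif was in 16 of 16 cholesterol synthesis windows (100%) and 11 of 15 lipogenesis windows (73.3%), beside 4233 of 9857 windows of all genes tested (42.9%). It was in 186 of 442 windows of genes below CNT (42.1%) and 142 of 338 of genes above (42.0%), close to the share over all genes. A match is a description of these letters and not of binding.

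Most bile acid genes did not pass, though 14 of 19 had differences below 0 (median -0.21). Of 19 tested, 2 fell (10.5%, beside 3.87% of all genes) and 0 rose, and both lay on one side (10.5%, beside 4.30%). Abcb11, the bile salt export pump, ranged from 12.31 to 12.87 in HFHS-titled livers, against 13.29, 13.19 and 13.11 in CNT livers (-0.63 ± 0.08, adjusted p = 0.00259). The side-chain hydroxylase Cyp27a1 differed by -0.47 ± 0.10 (adjusted p = 0.0161). Cyp7a1, which sets the rate of the classic route to bile acids, ranged from 11.65 to 12.62, against 11.63, 12.05 and 12.48 in CNT livers. The groups overlapped (0.08 ± 0.22, adjusted p = 0.83), and the difference was -0.13 without CNT replicate 1. The 2 calls became 7 without HFHS replicate 2, 4 without CNT replicate 3 and 1 without CNT replicate 1 or 2, and without CNT replicate 3 there were 6 genes below CNT.

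The urea cycle and periportal nitrogen list held the largest share of genes below CNT among the 27 pathway lists. It was 8 of 18 (44.4%, beside 4.30% of all genes), while 3 passed the test (16.7%, beside 3.87%). All 18 had differences below 0 (median -0.43), beside 6487 of 12637 genes tested. Ass1, which makes argininosuccinate (chromosome 2, 31470207 to 31520672), had 13.16, 12.93 and 12.73 with curcumin, 13.00, 12.85 and 12.96 with calcitriol and 12.94, 13.25 and 12.12 in uninjected HFHS livers, against 13.91, 14.02 and 13.65 in CNT livers (-0.98 ± 0.19, adjusted p = 0.0135). HFHS replicate 3 was the lowest library. Cps1, which fixes ammonia in the first step, had the same low library, 14.84, in a range of 14.84 to 15.62, against 16.12, 16.29 and 15.77 in CNT livers (-0.62 ± 0.15, adjusted p = 0.0277). Agxt, a peroxisomal aminotransferase, fell by 0.65 ± 0.14 (adjusted p = 0.0194). Otc, Arg1, Gls2 and Hal lay below CNT in all 9 livers with adjusted p between 0.0507 and 0.19. The 3 calls became 0 without CNT replicate 1 or 2. Leaving out HFHS replicate 2 gave 12 calls, leaving out replicate 3 gave 5, and leaving out replicates 1 and 3 together gave 6. Quantile normalization left 4 genes on one side. The hepatocyte markers given above, which include Cps1, moved the same way, and their part in the result was not tested.

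Detoxification enzymes were lower in all 3 families listed. In cytochrome P450 family 2, 9 of 28 fell (32.1%, beside 3.87% of all genes) and 0 rose. Of the 28, 9 lay below CNT (32.1%, beside 4.30%). Cyp2c69 (chromosome 19, 39842814 to 39886799) had 11.29, 12.00 and 11.78 with curcumin, 11.10, 11.70 and 10.89 with calcitriol and 10.73, 11.61 and 10.75 in uninjected HFHS livers, against 13.12, 13.14 and 12.49 in CNT livers (-1.60 ± 0.24, adjusted p = 0.00521). Cyp2c70, which makes muricholic acids in mice, ranged from 12.00 to 12.65, against 13.08, 12.91 and 13.08 in CNT livers (-0.66 ± 0.09, adjusted p = 0.00334). Cyp2r1, the main 25-hydroxylase of vitamin D, ranged from 7.30 to 7.60 over all 9 livers, against 7.92, 7.92 and 8.08 in CNT livers (-0.53 ± 0.07, adjusted p = 0.00276). Its differences in the 3 groups were -0.51 with curcumin, -0.56 with calcitriol and -0.50 without injection. The 9 calls became 5 without CNT replicate 1 and 4 without CNT replicate 2. Outside this family Cyp3a44 fell by 1.45 ± 0.26 (adjusted p = 0.0133).

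Of 13 sulfotransferases, which add sulfate to steroids and drugs, 3 fell (23.1%, beside 3.87% of all genes) and all 3 lay on one side (beside 4.30%). Sult5a1 (chromosome 8, 123140192 to 123158315) had 6.10, 6.35 and 5.98 with curcumin, 5.88, 5.90 and 5.84 with calcitriol and 5.24, 5.93 and 5.28 in uninjected HFHS livers, against 7.62, 8.03 and 7.65 in CNT livers. The groups were 1.27 apart and the difference was -1.93 ± 0.14 (adjusted p = 6.93e-05). Sult3a1 ranged far more widely, from 6.88 to 9.88 (median 8.82), against 10.37, 10.72 and 10.31 in CNT livers (-1.77 ± 0.45, adjusted p = 0.0464, or 0.172 without CNT replicate 2), and its near copy Sult3a2 fell by 1.09 ± 0.25 (adjusted p = 0.0283). Without CNT replicate 1 or 2 there was 1 call in this family, and without HFHS replicate 2 there were 6. Without CNT replicate 3, 5 of the 13 lay on one side. Among 20 glutathione S-transferases, 8 fell and 0 rose, and 5 lay on one side (25.0%). Gstm7 ranged from 9.27 to 9.64, against 10.03, 9.97 and 9.92 in CNT livers (-0.55 ± 0.07, adjusted p = 0.00184). The 8 calls became 3 and 2 without CNT replicates 1 and 2, and the 5 genes on one side became 8 without HFHS replicate 1 or CNT replicate 3. The carboxylesterase Ces2a (chromosome 8, 104734003 to 104741634) had 10.63, 10.90 and 10.68 with curcumin, 10.76, 10.72 and 9.95 with calcitriol and 10.20, 10.60 and 10.14 in uninjected HFHS livers, against 11.98, 11.96 and 11.48 in CNT livers (-1.30 ± 0.18, adjusted p = 0.00276). Members of the Cyp2c, Cyp3a, Sult3a and Gstm clusters resemble each other closely, so reads may have been split between them and single values are uncertain. Of 19 NRF2 antioxidant targets 2 fell (10.5%, beside 3.87% of all genes), Prdx1 (-0.31) and Ftl1 (-0.27), and neither passed without CNT replicate 1 or 2.

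**Figure D3:**
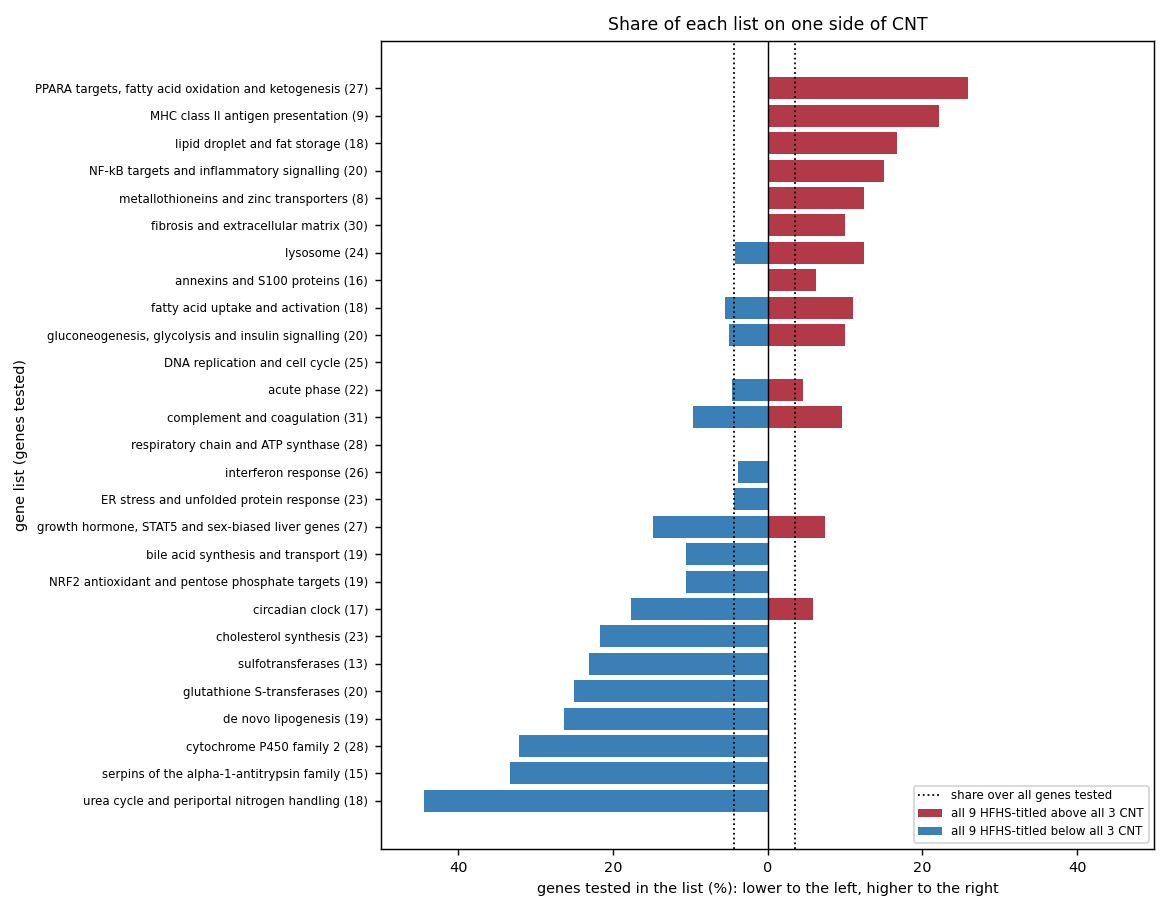
Share of the genes tested in each of 27 gene lists (number in brackets) for which all 9 HFHS-titled livers lay above (right) or below (left) all 3 CNT livers; dotted lines mark the shares over all genes tested, 3.51% and 4.30%. PPARA targets reach 25.9% to the right, and the urea cycle list 44.4% to the left.

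The alpha-1-antitrypsin genes, which encode the main protease inhibitor of plasma, held the largest fall of all. Mice carry several near-identical copies in 1 cluster on chromosome 12. Serpina1e (103946931 to 103958975, minus strand) had 7.52, 8.44 and 8.66 with curcumin, 7.55, 9.16 and 8.92 with calcitriol and 8.11, 7.77 and 8.09 in uninjected HFHS livers, against 11.43, 11.28 and 11.40 in CNT livers. The 3 CNT livers agree within 0.15 while the HFHS-titled livers spread over more than 1 unit, and the groups are 2.12 apart (-3.12 ± 0.32, adjusted p = 0.00124). Serpina1c (-0.72 ± 0.14, adjusted p = 0.0128), Serpina1d (-0.66 ± 0.15, adjusted p = 0.0263) and Serpina1a (-0.40 ± 0.10, adjusted p = 0.0405, or 0.123 without CNT replicate 2) fell far less. Serpina1b lay below CNT in all 9 livers by a gap of 0.00276 (-0.38, adjusted p = 0.0869). Of the 15 serpins tested in this list, 4 fell (26.7%, beside 3.87% of all genes) and 0 rose. Of the 15, 5 lay below CNT (33.3%, beside 4.30%) and 6 had differences above 0. The 4 calls of this list became 1 without CNT replicate 2 and 2 without CNT replicate 1 or 3 or curcumin replicate 3.

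The 5 promoters are printed because the copies are nearly the same upstream while their differences from CNT are not. Each line gives the stretch common to all 5 RefSeq windows (GRCm38.p6), 5' to 3', with capitals where a base differs from, or is absent in, Serpina1e.
Serpina1e, chr12:103956910-103957147, minus strand: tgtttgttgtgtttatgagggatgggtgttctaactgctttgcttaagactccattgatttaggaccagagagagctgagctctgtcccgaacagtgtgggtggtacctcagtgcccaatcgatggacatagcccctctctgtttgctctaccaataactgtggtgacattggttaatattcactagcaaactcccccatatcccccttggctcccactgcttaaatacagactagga
Serpina1a, chr12:103863575-103863812, minus strand: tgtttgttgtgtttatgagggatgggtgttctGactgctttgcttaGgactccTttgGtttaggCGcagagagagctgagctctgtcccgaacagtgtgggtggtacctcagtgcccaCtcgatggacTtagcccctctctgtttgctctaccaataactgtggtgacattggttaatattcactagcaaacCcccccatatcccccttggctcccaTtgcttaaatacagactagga
Serpina1b, chr12:103738150-103738389, minus strand: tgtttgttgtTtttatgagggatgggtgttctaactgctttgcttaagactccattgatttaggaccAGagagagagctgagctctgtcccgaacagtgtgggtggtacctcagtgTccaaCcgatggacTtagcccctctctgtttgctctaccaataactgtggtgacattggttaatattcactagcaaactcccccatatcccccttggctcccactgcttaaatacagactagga
Serpina1c, chr12:103904912-103905149, minus strand: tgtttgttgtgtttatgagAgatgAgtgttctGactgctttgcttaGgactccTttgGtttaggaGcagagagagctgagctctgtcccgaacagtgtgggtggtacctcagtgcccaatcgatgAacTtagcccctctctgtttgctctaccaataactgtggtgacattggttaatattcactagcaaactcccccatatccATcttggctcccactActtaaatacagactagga
Serpina1d, chr12:103773584-103773822, minus strand: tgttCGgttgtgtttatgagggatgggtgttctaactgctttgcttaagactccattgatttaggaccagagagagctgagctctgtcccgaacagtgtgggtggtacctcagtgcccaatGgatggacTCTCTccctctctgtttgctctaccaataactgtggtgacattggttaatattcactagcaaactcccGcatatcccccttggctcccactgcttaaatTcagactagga
Identity to Serpina1e was 98.3% for Serpina1b, 96.2% for Serpina1d, 95.8% for Serpina1a and 95.0% for Serpina1c, and a run of 59 bases near the start was the same in all 5. The transcripts of the copies were 96.1% to 98.6% identical over the 10 pairs, so reads could have been assigned to the wrong copy or dropped, and the value of each single copy is uncertain. All 6 genes of the cluster that were tested, from 103728156 to 103958975 and including the pseudogene Gm8893 (-0.84), lay below CNT.

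**Figure D4:**
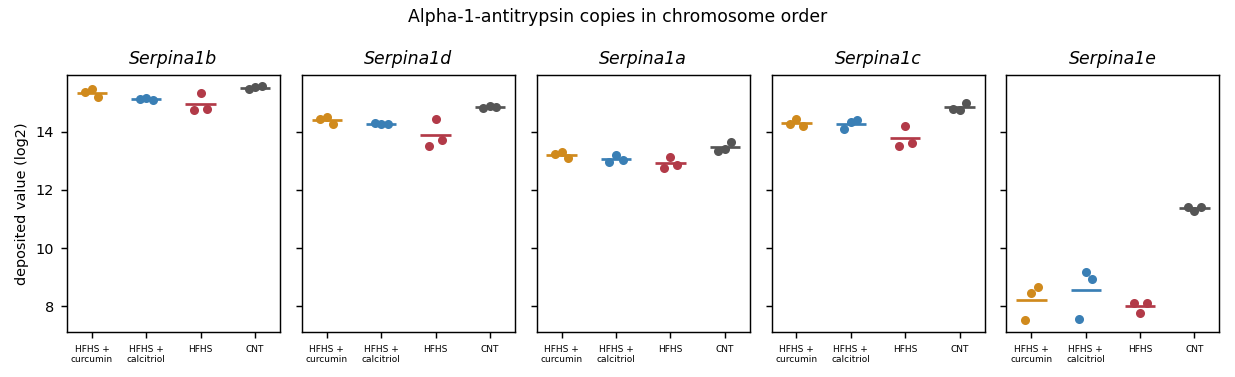
Deposited log2 values (vertical axis, shared) of the 5 alpha-1-antitrypsin copies in the 12 libraries by group; points are libraries and bars group means (n = 3). Serpina1e shows the wide separation, 7.52 to 9.16 in HFHS-titled livers and 11.28 to 11.43 in CNT livers, and the gap is 0.32 in Serpina1d, 0.31 in Serpina1c, 0.02 in Serpina1a and 0.00276 in Serpina1b.

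Genes on one side of CNT had a same-side neighbour more often than all placed genes did, though most had none. A same-side gene was the next tested gene on the chromosome for 60 of the 443 genes above CNT (13.5%) and for 81 of the 542 placed genes below (14.9%), beside 6.84% and 8.33% of all 12600 placed genes. Runs of 3 or more below CNT included the Serpina1 cluster, Cyp2c68, Cyp2c40 and Cyp2c69 on chromosome 19, Ugt2b36, Ugt2b5 and Ugt2b37 on chromosome 5, Cyp3a25, Cyp3a59, Rnf6 and Cdk8 on chromosome 5, and Tent4a, Nsun2 and Srd5a1 on chromosome 13. Above CNT the runs were the C-type lectin receptor genes Clec4a3, Clec4a2 and Clec4n on chromosome 6 and Armcx5, Bhlhb9 and Tceal8 on the X chromosome. Most of these are families of similar copies. Exons of 20 of the 74 genes singled out in the analysis overlap another annotated gene, 18 of them on the other strand, among them Gpc1, Plin4, Dbp, Tef, Tiam2, Elovl3 and Ucp2. The library strand is not given in the sources used here, so reads of such pairs cannot be told apart.

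Growth hormone targets and sex-biased liver genes moved in both directions: 3 of 27 rose (11.1%, beside 3.34% of all genes) and 4 fell (14.8%, beside 3.87%). Cux2, a factor of female liver, ranged from 8.54 to 9.40, against 9.58, 9.62 and 9.68 in CNT livers (-0.63 ± 0.12, adjusted p = 0.0128). Mup3, a major urinary protein gene of a family of close copies, ranged from 12.82 to 14.70, against 14.95, 15.36 and 15.31 in CNT livers (-1.06 ± 0.23, adjusted p = 0.0229). Elovl3, another elongase, lay above CNT, 5.92 to 7.64, against 5.67, 5.88 and 5.80 in CNT livers (0.97 ± 0.20, adjusted p = 0.018). Igfbp1, the insulin-repressed binding protein of IGF1, was split within the calcitriol and uninjected HFHS groups. It had 10.04, 10.04 and 9.97 with curcumin, 10.08, 11.23 and 11.19 with calcitriol and 11.27, 10.12 and 10.08 in uninjected HFHS livers, against 9.41, 9.60 and 8.98 in CNT livers (1.12 ± 0.29, adjusted p = 0.0451, or 0.122 without CNT replicate 3). The 3 rises became 0 without CNT replicate 1 or 2. The 4 falls became 0 without CNT replicate 2, 2 without CNT replicate 3 or without HFHS replicates 1 and 3, and 7 without HFHS replicate 2.

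Clock genes fell in 6 of 17 cases (35.3%, beside 3.87% of all genes) and rose in 0. Dbp, an output factor of the clock, had 10.13, 10.40 and 10.20 with curcumin, 10.03, 10.27 and 10.20 with calcitriol and 10.21, 10.51 and 10.67 in uninjected HFHS livers, against 10.96, 11.11 and 10.91 in CNT livers (-0.70 ± 0.10, adjusted p = 0.00274). Its relative Tef (-0.41 ± 0.10, adjusted p = 0.0339) and the repressor Bhlhe40 (-0.58 ± 0.11, adjusted p = 0.0126) also had all 9 livers below CNT. Arntl, the core activator, lay above CNT in all 9 livers, 4.81 to 5.43, against 4.80, 4.62 and 4.64 in CNT livers, with adjusted p = 0.0547. The hour at which livers were taken is not given in the sources used here. The 6 calls became 1 without CNT replicate 1 or 2 and 3 without curcumin replicate 1 or 2 or calcitriol replicate 1 or 2, and the 3 genes below CNT became 7 without CNT replicate 3.

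Most inflammatory and matrix genes did not separate all 9 livers from CNT, but 3 lists held larger shares above CNT than the 3.51% of all genes. Above CNT lay 3 of 30 fibrosis and matrix genes and 3 of 20 NF-kB target and inflammatory signalling genes. The same held for 2 of 9 genes of antigen presentation by MHC class II, and 0 genes of these lists lay below. By limma 2 of the 20 and 1 of the 9 rose, and in each list the calls became 0 in some alternatives. All 30 fibrosis and matrix genes had differences above 0. The median was 0.20 with curcumin, 0.15 with calcitriol and 1.02 without injection, each against the same CNT libraries. By limma 1 of the 30 rose (3.33%, beside 3.34% of all genes), and the 3 on one side became 12 without CNT replicate 1. Col1a1, which encodes a type I collagen chain, ranged from 6.68 to 10.13, against 7.14, 6.88 and 6.87 in CNT livers, its 2 high values being uninjected HFHS replicates 1 and 3 (0.92 ± 0.50, adjusted p = 0.267). Gpnmb, a marker of lipid-laden macrophages, had the same pattern (1.02 ± 0.58, adjusted p = 0.284). The mean level of 13 lipid-associated and infiltrating macrophage genes was 6.31 to 8.10 in HFHS-titled livers, with the highest in uninjected livers, and 6.26 to 6.52 in CNT livers; its part in these results was not tested. Smaller rises did hold in all 9 livers: the adhesion gene Vcam1, 8.82 to 9.62, against 8.77, 8.41 and 8.19 in CNT livers (0.68 ± 0.13, adjusted p = 0.0156), the complement receptor C5ar1 (0.57 ± 0.10, adjusted p = 0.0108), the cytokine Il1b (0.57 ± 0.15, adjusted p = 0.0412), the lysosomal protease Ctss (0.51 ± 0.12, adjusted p = 0.0331) and the lysosomal enzyme Hexa (0.42 ± 0.07, adjusted p = 0.00534). Steap4, an iron reductase of the acute phase list, rose by 0.61 ± 0.16 (adjusted p = 0.0397). Hamp, which encodes the iron hormone hepcidin, fell: 12.72, 12.50 and 12.01 with curcumin, 12.52, 12.35 and 13.12 with calcitriol and 13.23, 12.89 and 11.47 in uninjected HFHS livers, against 13.82, 13.45 and 13.90 in CNT livers (-1.19 ± 0.32, adjusted p = 0.0464, or 0.14 without CNT replicate 1). Zinc importer Slc39a5 rose by 0.77 ± 0.11 (adjusted p = 0.00276).

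Lists with few or no genes on one side are given as counts. In DNA replication and cell cycle 3 of 25 rose (12.0%, beside 3.34% of all genes) and 0 lay on one side. Those calls became 0 without any single CNT library and without the uninjected livers, and 10 without HFHS replicate 2. Of 26 interferon response genes 1 fell (3.85%, beside 3.87% of all genes), Bst2 (-0.44), and of 23 endoplasmic reticulum stress genes 0 passed. Of 12 Kupffer cell genes, markers of the resident macrophages, 0 passed although all 12 differences were above 0 (median 0.33; mean level 9.07 to 10.04 in HFHS-titled livers and 9.03 to 9.40 in CNT livers). The 7 erythroid genes tested had a median difference of 0.84 with curcumin, 1.02 with calcitriol and 0.05 without injection, and 1 rose, Alas2 (0.57).

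Other large changes fell outside the lists. Tpm2, a tropomyosin, ranged from 6.81 to 8.10 (median 7.65), against 6.56, 6.46 and 6.38 in CNT livers (1.15 ± 0.18, adjusted p = 0.00541). Apoa4, an apolipoprotein of triglyceride-rich particles, ranged from 12.84 to 14.54 (median 13.76), against 12.38, 12.39 and 12.64 in CNT livers (1.14 ± 0.22, adjusted p = 0.0136). Adgrg2, an adhesion receptor, rose by 1.06 ± 0.23 (adjusted p = 0.0245), with 7.86 in HFHS replicate 3 and at most 6.93 in the other HFHS-titled livers. Of the falls, Tiam2, an activator of the small GTPase Rac (chromosome 17, 3326573 to 3531344), had 6.12, 6.29 and 6.23 with curcumin, 6.34, 6.40 and 6.77 with calcitriol and 5.27, 6.61 and 5.25 in uninjected HFHS livers, against 7.44, 7.49 and 7.78 in CNT livers (-1.43 ± 0.24, adjusted p = 0.00876). Adgrf1, another adhesion receptor, ranged from 4.90 to 6.00, against 7.16, 7.30 and 6.24 in CNT livers (-1.52 ± 0.20, adjusted p = 0.00263). Gm6135 ranged from 4.71 to 5.30, against 7.05, 5.88 and 6.10 in CNT livers (-1.32 ± 0.19, adjusted p = 0.00381). At the edge of the choice, Kcnk5 and Ythdf3 lay below CNT by gaps of 0.000136 and 0.000269, while Cpeb1 and Larp1b missed by overlaps of -6e-05 and -3.96e-06.

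The size of the shared difference was then compared between the 6 injected and the 3 uninjected HFHS-titled livers, a contrast without CNT values. Over all genes tested limma called 512 (4.05%), 219 higher (1.73%) and 293 lower (2.32%) in injected livers. Among the genes on one side of CNT these calls were 17 of the 443 above CNT (3.84%) and 15 of the 543 below (2.76%). Of the 17, 14 were nearer to CNT in injected than in uninjected livers. Of the 15, 6 were nearer and 9 farther. The genes were chosen with the values of the same 9 livers, which can shape these shares and directions, so they are descriptions only. Medians over the 443 were 0.31 with curcumin, 0.33 with calcitriol and 0.41 without injection, and over the 543 they were -0.27, -0.29 and -0.32, each against the same CNT libraries.

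Cidec had the widest difference of this kind, -1.13 ± 0.25 (injected minus uninjected, log2, adjusted p = 0.0377), and so lay nearer to CNT with injection. Rbl1, a relative of the retinoblastoma gene (-0.57), the collagen gene Col12a1 (-0.52), the T cell gene Themis (-0.51) and the antigen loading gene H2-DMa (-0.50) were also nearer. Fasn went the other way, lower by a difference of -0.79 ± 0.15 (adjusted p = 0.0247) and thus farther below CNT with injection, as was the glutathione transferase Gstm1 (-0.51 ± 0.12, adjusted p = 0.0426). Acsl3 was also farther below CNT with injection (-0.26 ± 0.06, adjusted p = 0.0411). Against CNT, Acsl3 differed by -0.42 with curcumin, -0.37 with calcitriol and -0.14 without injection. The organic anion carrier gene Slc22a26 (0.60 ± 0.14, adjusted p = 0.039) and Prr14 (0.24), both below CNT, were nearer with injection, while the protease gene Bace1 (0.21), Tdrp (0.27) and 4930458D05Rik (0.31), all above CNT, were farther. The number of calls depended on single libraries. Leaving out HFHS replicate 1 gave 16 calls in place of 512. Leaving out HFHS replicate 3 gave 25, and leaving out HFHS replicate 2 gave 3051. Without replicates 1 and 3 the uninjected group is 1 library, assumed to vary like the other groups, and limma called 0 genes, with 875 at an unadjusted p under 0.05. In that fit Fasn differed by -1.02, Bace1 by 0.20 and 4930458D05Rik by 0.32, as large as or close to their values with all libraries, while Cidec differed by -0.38 and H2-DMa by -0.16. Leaving out an injected library gave 50 to 240 calls. The CNT libraries enter only through the shared spread, and leaving out CNT replicates 1, 2 and 3 in turn gave 338, 203 and 684. Effects of the compounds, the injection and the liposomes cannot be told apart.

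**Figure D5:**
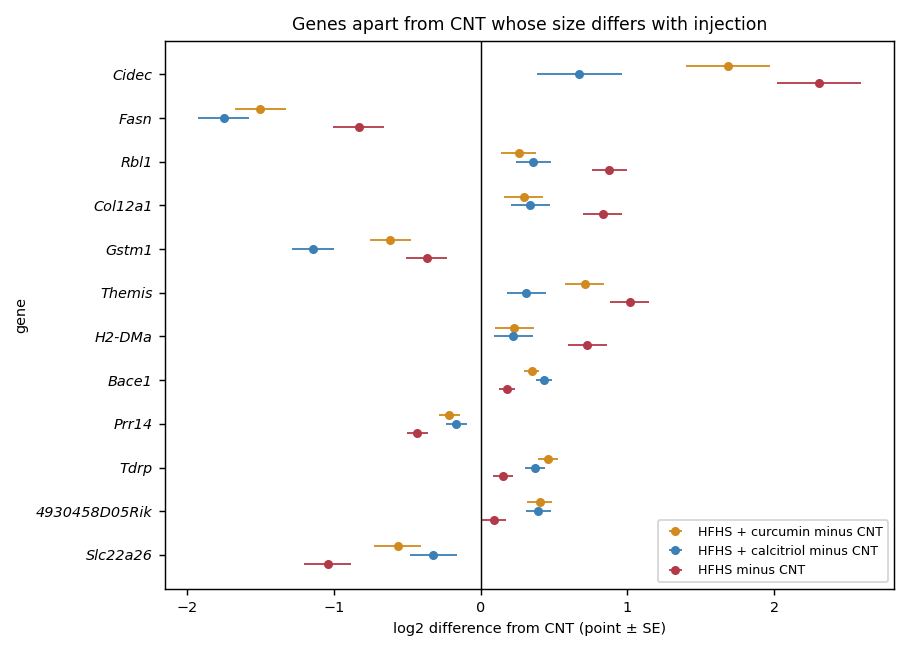
Log2 difference from CNT (horizontal axis; points with SE of the model, n = 3 libraries a group) of 12 genes on one side of CNT whose level differed between injected and uninjected HFHS livers, for curcumin, calcitriol and uninjected livers. Cidec is nearer to 0 in calcitriol (0.67) than in uninjected livers (2.30), and Fasn is farther from 0 in calcitriol (-1.75) than in uninjected livers (-0.83).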

How the data were processed

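RNA from whole livers was sequenced on an Illumina platform after extraction with the RNeasy mini kit, per the labels' protocols. The deposited files hold log2 values per gene, made by the authors with a transformation that is not given in the sources used here. The submitters' processing notes name STAR 2.4.0d, DESeq2 1.8.1 and GRCm38 without their roles. Of 45792 genes per library, 23411 were at exactly 0 in all 12 and 12637 had at least 10 (3.32 on the log2 scale) in 3 or more libraries and were tested. Depth is unknown.

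A limma 3.58.1 model (R 4.3.3) with 4 group means over 12 libraries, a variance trend and robust moderation gave two-sided p-values adjusted by Benjamini-Hochberg over all genes tested, called at 0.05. HFHS-titled against CNT was the mean of the 3 HFHS group means minus the CNT mean. Injected against uninjected livers used the same fit. On simulated data with 200 changed genes, 70.5% of changes of 0.5 and 94.5% of changes of 1 (log2) were recovered for the comparison with CNT, over 12637 genes.

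The members and the gene lists were chosen with earlier results of these data known. Genes named are the 12 largest rises and 12 largest falls that passed and did not overlap, the 4 widest gaps each way, up to 4 by p in lists with at least 3 such genes, up to 8 each way that differed with injection, and a fixed set, less a few genes that are not reported here; list members named beyond these were chosen after their values were seen. Coordinates are those of GENCODE M21 (GRCm38). Promoters came from RefSeq (GRCm38.p6) and were aligned with mafft 7.526, and transcripts were compared with blastn 2.17.0. Titles do not say whether replicate numbers pair libraries, and the main fit left the numbers out. Of 18 same-number pairs, 9 had deviations correlated over 0.1. The mean correlation was 0.09 over all same-number pairs and -0.04 over pairs of other numbers. Alternatives were another normalization, filter, weighting or model, and leaving out libraries.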

Additional observations from a re-analysis of the deposited data

Results flagged for a closer look

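In 6 of 71 genes checked, a single library stood away from the other 8 HFHS-titled livers by Dixon's criterion. Chance meets it in about 1 of 20 groups, or 3.55 of 71. These were Pdk4 in HFHS replicate 2 (8.05), Vnn1 in HFHS replicate 1 (11.24), Adgrg2 in HFHS replicate 3 (7.86), Tef in HFHS replicate 1 (11.37), Cps1 in HFHS replicate 3 (14.84) and Ass1 in HFHS replicate 3 (12.12). All 6 are values of uninjected livers.

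Of the genes on one side of CNT, 17 above and 15 below differed between injected and uninjected HFHS livers by limma. Only 12 of them and Acsl3, which differed by -0.26 (injected minus uninjected, log2, adjusted p = 0.0411), are given here. The log2 differences (injected minus uninjected) were -1.13 for Cidec, -0.79 for Fasn, -0.57 for Rbl1, -0.52 for Col12a1, -0.51 for Gstm1, -0.51 for Themis and -0.50 for H2-DMa. They were 0.60 for Slc22a26, 0.31 for 4930458D05Rik, 0.27 for Tdrp, 0.24 for Prr14 and 0.21 for Bace1. Without HFHS replicates 1 and 3 the uninjected group is 1 library and none of the 12 passed, with differences of -1.02 for Fasn, 0.20 for Bace1 and 0.32 for 4930458D05Rik but -0.38 for Cidec and -0.16 for H2-DMa.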

How the results depend on the processing

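Against 911 genes called between HFHS-titled and CNT livers, 604 were called with no filter, 4580 with array weights and 379 with 2 groups in place of 4. Leaving out 1 library gave 137 to 2508. The 512 calls between injected and uninjected livers became 3348 with array weights and 0 without HFHS replicates 1 and 3, which leaves 1 uninjected library, and 16 to 3051 without 1 library. The 986 genes on one side of CNT became 1698 without the 3 uninjected livers and 99 with a gap of at least 0.2, and 1017 to 2342 without 1 library, a count that leaving libraries out cannot lower. The 2-group model and the fits without the uninjected livers were chosen after seeing the data, as was leaving out single CNT libraries for the injection contrast. With the replicate number as a block the counts were 1058 and 732, and 9 of 12 libraries correlated best with their own number. This is a hint of pairing from the data, and the titles do not state a pairing. Cyp7a1, which did not pass, had a difference of the other sign without CNT replicate 1 (-0.13) and without calcitriol replicate 1. No other of the 74 genes singled out in the analysis changed sign in the alternatives run. Signs of the other list members named were not followed. Among the genes followed, 334 values of single genes under an alternative no longer passed the threshold. The causes were not tested. Serpina1e, Sult5a1, Casc4, Vnn1, Gpc1, Cd36 and Fasn passed in all 22 alternatives. Depth is unknown, so what it limits cannot be stated, and 3 CNT libraries set every comparison with CNT.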
